A study of Homo sapiens with 8 samples.

Results

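Transcripts of 7 esterase genes were measured among 59050 gene symbols in 8 xenografts of H2122, an established line of human lung cancer. The 7 genes were AADAC, its neighbouring pseudogene AADACP1, NCEH1, CES1, CES2, CES3 and CES4A. They were selected on measured values of these same tumours, with their difference between groups already known, so their differences between groups are given as a description with no test. The first group was 4 parental tumours, genotype wild type for SMARCA4, and the second was 4 tumours of H2122 cells carrying a SMARCA4 knockout. Treatment was vehicle in both groups. The labels do not say how SMARCA4 was disrupted, whether the knockout cells were a single clone, which host was used, or whether each tumour came from its own animal, so the spread between tumours may be partly technical. SMARCA4, the ATPase of the SWI/SNF chromatin remodelling complex, averaged 220.4 ± 16.0 CPM (counts scaled to library size and composition; SD, n = 4) in parental tumours. In knockout tumours it averaged 27.2 ± 3.90 CPM (SD, n = 4), lower in every tumour.

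AADAC (arylacetamide deacetylase) and NCEH1 (neutral cholesterol ester hydrolase) belong to the hormone-sensitive-lipase-like branch of the alpha/beta hydrolases and are anchored in the membrane of the endoplasmic reticulum. The carboxylesterases CES1 and CES2 are the main drug-hydrolysing esterases of liver and intestine. CES1 prefers substrates with a small alcohol group, and CES2, which activates the prodrug irinotecan, prefers those with a small acyl group. AADAC hydrolyses acetylated drugs and has been linked to the turnover of stored triglyceride in hepatocytes, and NCEH1 releases cholesterol from stored cholesteryl ester in macrophages. CES3 and CES4A are less studied members of the carboxylesterase family.

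Sequences are shown first for the members with higher levels in the knockout tumours, because they show how far AADAC can be told from its pseudogene and what lies at the starts of the genes. The GENCODE 29 transcripts AADAC-201 and AADACP1-204 aligned over 639 columns with 82% identity, and the longest identical stretch was 50 bases. The coding window of 60 bases in which they differed most holds 16 differences. It lies at chr3:151827822-151827881 in AADAC and at chr3:151784074-151784133 in AADACP1 (GRCh38, + strand), and capitals mark the bases at which the copies differ.
AADAC: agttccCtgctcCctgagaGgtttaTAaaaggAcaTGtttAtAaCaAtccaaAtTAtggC
AADACP1: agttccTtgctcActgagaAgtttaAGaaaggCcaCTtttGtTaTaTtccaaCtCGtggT
Of the 1619 distinct runs of 50 bases in AADAC transcripts, 1 also occurred in another gene, AADACP1, so at nearly every position a run of this length tells the copies apart. NCEH1 shared none of its 4854 such runs with any other gene.

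RefSeq promoters (GRCh38.p14), running from 250 bases before to 50 bases after the annotated start, were on hand for 4 of the 7 genes. The promoters of AADAC (chr3:151813866-151814165, + strand), NCEH1 (chr3:172711018-172711317, - strand) and CES4A (chr16:66988339-66988638, + strand) are printed because these are the genes whose tumour groups lay apart. Capitals mark matches to the motifs searched on both strands.
AADAC: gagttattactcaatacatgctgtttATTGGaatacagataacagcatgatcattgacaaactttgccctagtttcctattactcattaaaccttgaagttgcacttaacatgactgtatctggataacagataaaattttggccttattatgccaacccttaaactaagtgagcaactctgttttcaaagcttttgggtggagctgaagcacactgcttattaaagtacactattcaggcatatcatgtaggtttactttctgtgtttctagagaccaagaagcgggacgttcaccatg
NCEH1: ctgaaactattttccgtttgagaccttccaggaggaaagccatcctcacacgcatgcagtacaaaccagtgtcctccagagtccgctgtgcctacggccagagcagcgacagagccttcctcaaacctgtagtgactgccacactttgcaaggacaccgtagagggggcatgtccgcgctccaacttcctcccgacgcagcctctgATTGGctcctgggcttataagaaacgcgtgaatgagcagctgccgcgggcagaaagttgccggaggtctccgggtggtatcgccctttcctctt
CES4A: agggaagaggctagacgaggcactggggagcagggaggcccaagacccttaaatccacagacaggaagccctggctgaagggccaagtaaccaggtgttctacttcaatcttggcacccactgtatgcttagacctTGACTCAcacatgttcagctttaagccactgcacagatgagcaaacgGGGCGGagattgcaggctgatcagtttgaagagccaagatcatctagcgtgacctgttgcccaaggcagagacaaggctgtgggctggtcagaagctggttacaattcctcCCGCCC
The AADAC promoter had a GC content of 37.3% and 2 CpG dinucleotides, against medians of 58.7% and 14 over 35116 promoters of the same length. The NCEH1 promoter had a GC content of 57% with 17 CpG dinucleotides, and the printed promoter of CES4A 54.3% with 5. A second RefSeq promoter of CES4A (chr16:67000289-67000588, + strand) had a GC content of 65% with 16 CpG dinucleotides and held none of the motifs. The CCAAT box, searched as CCAAT, occurred in AADAC on the minus strand at position -224 from the start and in NCEH1 on the minus strand at -44, and 34.6% of all promoters hold it. The printed CES4A promoter held the AP-1 motif TGANTCA at -114, found in 7.71% of all promoters, and the GC box GGGCGG at -67 and at 44, found in 45% of them. The other motifs searched were the TATA box TATAAA, the HNF1 motif GTTAAT, the HNF4 core CAAAGNNCA and the antioxidant response core TGACNNNGC. Those letters were absent from the 3 printed windows, and 11.5%, 6.88%, 5.28% and 13.4% of all promoters hold them, respectively. The 2 RefSeq promoters of CES2 held none of the 7 motifs and had GC contents of 69% and 63.3%.

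The libraries held 19785922 to 23191698 counts assigned to genes, and 79.1% to 85.2% of reads were assigned. The 10 markers fixed for lung adenocarcinoma epithelium summed to 5748 to 6919 CPM in parental tumours and 4628 to 6228 CPM in knockout tumours (exact permutation p = 0.0857, adjusted p = 0.229). EPCAM averaged 515 and 439.9 CPM and KRT8 1788 and 1999 CPM in parental and knockout tumours. KRT18 averaged 1246 and 1348 CPM and CDH1 164 and 173 CPM in the same order. The keratins KRT7 (1672 to 1023 CPM, edgeR adjusted p = 0.000333) and KRT19 (1059 to 526 CPM, edgeR adjusted p = 8.48e-05) fell. The lung lineage markers NKX2-1 and SFTPC had no counts in any tumour. A fit across 16219 genes with edgeR's quasi-likelihood test called 27% of genes different between the groups at an adjusted p under 0.05, 13% higher and 14.1% lower in knockout tumours. All 7 esterase genes had enough counts to enter the fit. Of them 4 were called, all higher in knockout tumours (AADAC, AADACP1, NCEH1 and CES4A), and 3 were not called (CES1, CES2 and CES3). Since the choice of genes used this same comparison, that count is given without reading anything from it.

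**Figure D1:**
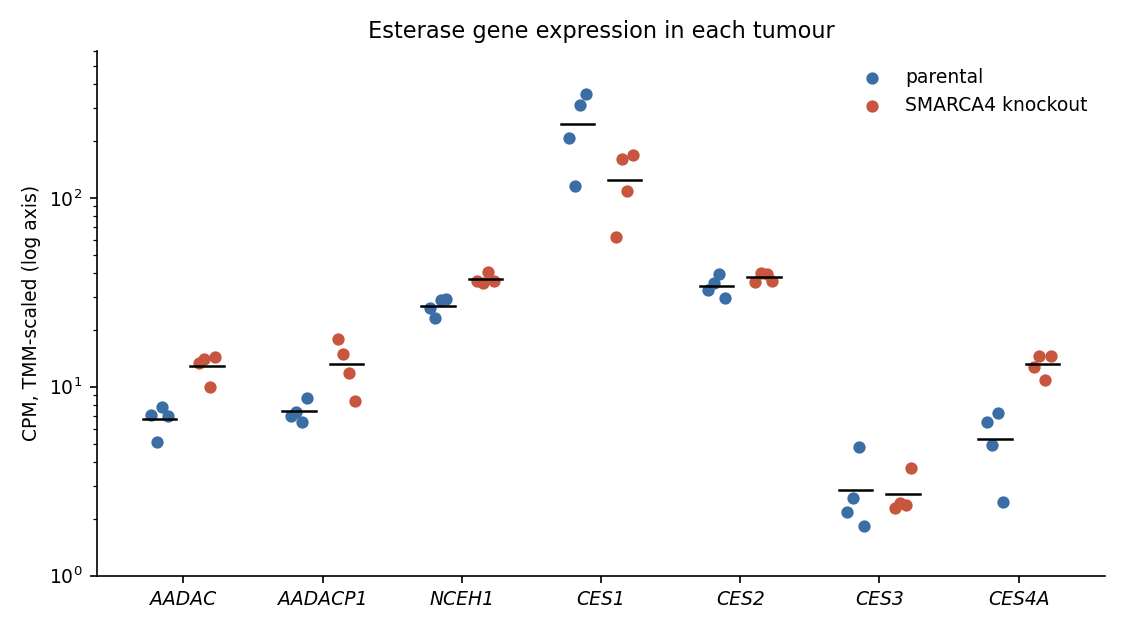
Expression of the 7 esterase genes in each tumour, in TMM-scaled CPM on a log axis. Each point is a tumour (4 parental in blue, 4 SMARCA4 knockout in red) and each black line a group mean. The groups lie apart for AADAC, NCEH1 and CES4A and overlap for the other 4 genes.

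AADAC (ENSG00000114771) lies on chromosome 3 at 151814037 to 151828488, + strand. Its levels were 7.08, 5.12, 7.85 and 7.0 CPM in parental tumours 1 to 4. In knockout tumours 1 to 4 they were 13.3, 14.1, 10.0 and 14.3 CPM. The groups did not overlap, and the lowest knockout tumour (replicate 3) was still above the highest parental tumour (replicate 3). The group means were 6.76 ± 1.16 and 12.9 ± 1.99 CPM (SD, n = 4 each), a ratio of 1.91 and a fitted log2 fold change of 0.93 (SE 0.164). These levels rest on 105 to 176 reads in each parental tumour and 215 to 307 in each knockout tumour. In a whole tumour, fewer cells of a type and less RNA per cell cannot be told apart, and this applies to every level given here.

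AADACP1 (ENSG00000240602, chromosome 3, 151770428 to 151784894, + strand) is a transcribed unprocessed pseudogene that lies before AADAC on the same strand and has no known protein product. It had 7.03, 7.31, 6.51 and 8.74 CPM in parental tumours. In knockout tumours it had 17.9, 14.8, 11.8 and 8.39 CPM. Knockout replicates 1 to 3 lay above every parental tumour, whereas knockout replicate 4 lay below parental replicate 4. The means were 7.40 ± 0.956 and 13.2 ± 4.08 CPM (SD, n = 4 each), with a fitted log2 fold change of 0.84 (SE 0.211). The pseudogene was thus counted at about the level of the gene, with AADACP1 to AADAC count ratios of 0.993, 1.43, 0.830 and 1.25 in parental tumours. The ratio in knockout tumours was 1.34, 1.06, 1.18 and 0.586. The last of these, from knockout replicate 4, had a 95% interval of 0.485 to 0.707 (exact, counting error only), so AADAC was high and AADACP1 low in the same tumour.

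A further transcribed pseudogene, AC068647.2 (ENSG00000250271, chromosome 3, 151797047 to 151808249, + strand), sits between AADACP1 and AADAC, 5.79 kb before AADAC. Its longest annotated transcript, of 390 bases, aligned to AADAC over 167 columns with 74.9% identity. It had 2.12, 1.75, 1.29 and 2.12 CPM in parental tumours and 3.59, 3.12, 2.24 and 3.22 CPM in knockout tumours, so its groups did not overlap. It was called higher (log2 fold change 0.74, SE 0.229, edgeR adjusted p = 0.0334). That call rests on 29 to 77 reads per tumour and was lost under 6 of 16 alternative settings. All 3 genes of this short stretch therefore had higher fitted levels in the knockout tumours. The nearest tested genes outside the stretch had values below 0. IGSF10, on the AADACP1 side, fell by 1.86 on the log2 scale (SE 0.400, edgeR adjusted p = 0.00519). MBNL1, a splicing regulator on the AADAC side, had a value of -0.26 (SE 0.117, edgeR adjusted p = 0.126).

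NCEH1 (ENSG00000144959, chromosome 3, 172630249 to 172711218, - strand) was the most even of the higher genes. It had 26.1, 23.1, 28.8 and 29 CPM in parental tumours. In knockout tumours it had 36.2, 35.3, 40.3 and 36.1 CPM. All knockout tumours lay above all parental tumours. The means were 26.8 ± 2.77 and 37.0 ± 2.23 CPM (SD, n = 4 each), a ratio of 1.38 and a fitted log2 fold change of 0.47 (SE 0.0978). Its nearest tested neighbours were TNFSF10, which encodes the death ligand TRAIL, at -0.12 (SE 0.142, edgeR adjusted p = 0.573), and ECT2, a cytokinesis factor, at 0.27 (SE 0.154, edgeR adjusted p = 0.218).

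CES4A (ENSG00000172824, chromosome 16, 66988589 to 67009758, + strand) had the largest difference of the 7 genes. Its levels in parental tumours were 6.51, 4.92, 7.22 and 2.46 CPM. Those in knockout tumours were 12.8, 14.5, 10.9 and 14.5 CPM. The groups did not overlap, although parental replicate 4 was well below the other parental tumours. The means were 5.28 ± 2.11 and 13.2 ± 1.74 CPM (SD, n = 4 each), a ratio of 2.49 and a fitted log2 fold change of 1.32 (SE 0.266). Without parental replicate 4 the fitted value was 1.07. With CES4A, 3 of the 7 genes had groups that did not overlap, against 29.3% of all tested genes. An unclassified transcript on the opposite strand, AC009084.2, overlaps 15.1% of the exon bases of CES4A, and it received 11 counts over the parental tumours and 18 over the knockout tumours. Likewise AC009084.3 overlaps 8.18% of the exon bases of CES2 on the opposite strand and received 7 and 2 counts. AC009084.1, which overlaps 2.75% of CES2 and 1.58% of CES3 on the same strand, received none. Whether the counting used strand is not given in the sources used here.

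CES2 (ENSG00000172831, chromosome 16, 66934444 to 66945096, + strand) and CES3 (ENSG00000172828, chromosome 16, 66961237 to 66975148, + strand) lie in a row before CES4A on the same strand. CES2 had 32.4, 35.4, 39.4 and 29.5 CPM in parental tumours and 36, 40.1, 39.4 and 36.4 CPM in knockout tumours, with overlapping groups. Its fitted log2 fold change was 0.15 (SE 0.102). CES3 had 2.17, 2.58, 4.82 and 1.83 CPM in parental tumours and 2.29, 2.43, 2.38 and 3.73 CPM in knockout tumours, also overlapping. Its fitted log2 fold change was -0.08 (SE 0.309), from 42 to 108 reads per tumour, and it changed sign when parental replicate 3 was left out (0.30). In both groups 1 tumour stood above the other 3, parental replicate 3 and knockout replicate 4. Of the 3 adjacent genes, only CES4A was called. The nearest gene outside the row is CIAO2B, a cytosolic iron-sulfur assembly factor that starts 0.021 kb before CES2 on the other strand, and it had a value of -0.01 (SE 0.0947, edgeR adjusted p = 0.963). On the far side, CBFB had a value of -0.23 (SE 0.108, edgeR adjusted p = 0.142).

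CES1 (ENSG00000198848, chromosome 16, 55802851 to 55833337, - strand) was the most abundant of the 7 genes and had the lower mean in the knockout tumours. Parental tumours had 207, 115, 308 and 353 CPM. Knockout tumours had 62.0, 159.5, 108 and 169 CPM. Parental replicate 2 lay within the range of the knockout tumours, and the other parental tumours lay above it. The means were 246 ± 106 and 125 ± 49.7 CPM (SD, n = 4 each), with a fitted log2 fold change of -0.98 (SE 0.353), and the gene was not called. Without parental replicate 2 the fitted value was -1.22 and CES1 was called, as it also was when no low-count filter was applied.

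CES1 had the widest spread between tumours of the same group among the 7 genes, by the fitted biological coefficient of variation. The highest parental tumour was 3.06 times the lowest, and the highest knockout tumour 2.73 times the lowest. The coefficients of variation of its CPM were 43.2% in parental and 39.8% in knockout tumours. By this measure CES3 was more spread in parental tumours, with 47.3% and 25.3%, and CES4A had 40.0% and 13.2%. The fitted biological coefficient is the spread between tumours of a group beyond counting. For CES1 it was 34.3%, above that of 95.6% of tested genes. NCEH1 and CES2 lay at the other end, with 10.6% and 11%, below the median of 14.6% over all tested genes. AADAC had 16.4%, AADACP1 21.1%, CES4A 25.8% and CES3 29.9%. This spread is measured within groups, but the genes were chosen on values of these same tumours, so it too is a description. Of the 50-base runs of CES1, 29.8% also occur in other genes, nearly all of them in the pseudogene CES1P1, with which it aligned at 96.7% identity over 844 columns. CES1P1 received 18 counts over the parental and 5 over the knockout tumours, and reads matching both can be dropped as not unique, so the CES1 level is uncertain.

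CES1 is also known as a gene of monocytes and macrophages, so the macrophage markers were set beside it. Their summed level was 11.1, 70.1, 61.0 and 5.69 CPM in parental tumours 1 to 4, and 13.7, 25.5, 12.1 and 8.90 CPM in knockout tumours 1 to 4. None of the 11 markers was at 0 over all tumours, but only 3 had enough counts to enter the fit. Most of the mean sum came from LYZ, at 21.68 of 36.96 CPM in parental and 9.02 of 15.02 CPM in knockout tumours. Whether the sums measure macrophage content was not tested, and any separation of mouse reads is not given in the sources used here. Within the parental group, replicate 2 had the highest macrophage sum and the lowest CES1 level, replicate 4 the lowest sum and the highest CES1 level, and replicate 3 was high in both. Within the knockout group, replicate 2 had the highest sum and the second-highest CES1 level, and replicate 4 the lowest sum and the highest CES1 level. An exact two-sided permutation test of the macrophage sums between groups missed the threshold (p = 0.4, adjusted p = 0.533 over 8 lists, smallest possible p 0.0286). Hepatocytes and enterocytes, the usual sites of these esterases, were checked in the same way. The sum of 8 hepatocyte markers was 840.1 to 1606 CPM in parental tumours and 796 to 1233 CPM in knockout tumours (exact permutation p = 0.257, adjusted p = 0.514). Nearly all of it came from the plasma protein genes SERPINA1, at means of 1120.0 and 759 CPM, and FGB, at 139 and 262 CPM. Of the other hepatocyte markers, TTR had no counts, and ALB averaged 0.0122 and 0.0466 CPM. Of the enterocyte markers, FABP2, SI, CDX2 and APOA4 had no counts. The enterocyte sum was 6.62 to 9.31 CPM in parental tumours and 0.326 to 0.700 CPM in knockout tumours (exact permutation p = 0.0286, adjusted p = 0.114). It was carried by the actin-bundling gene VIL1 (log2 fold change -4.17, edgeR adjusted p = 6.6e-07). The adipocyte sum was 7.60 to 10.7 CPM in parental and 11.9 to 18.2 CPM in knockout tumours (exact permutation p = 0.0286, adjusted p = 0.114), with ADIPOQ at 0. Its rise was carried by the complement factor gene CFD (log2 fold change 2.05, edgeR adjusted p = 0.00018). LIPE, of the same list, went the other way, at means of 5.85 and 2.38 CPM. Both the enterocyte and the adipocyte sums had groups that lay apart, and 0.0286 is the smallest p this test can give. The part of the epithelial, macrophage, hepatocyte, enterocyte and adipocyte markers in the esterase levels was not tested.

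**Figure D2:**
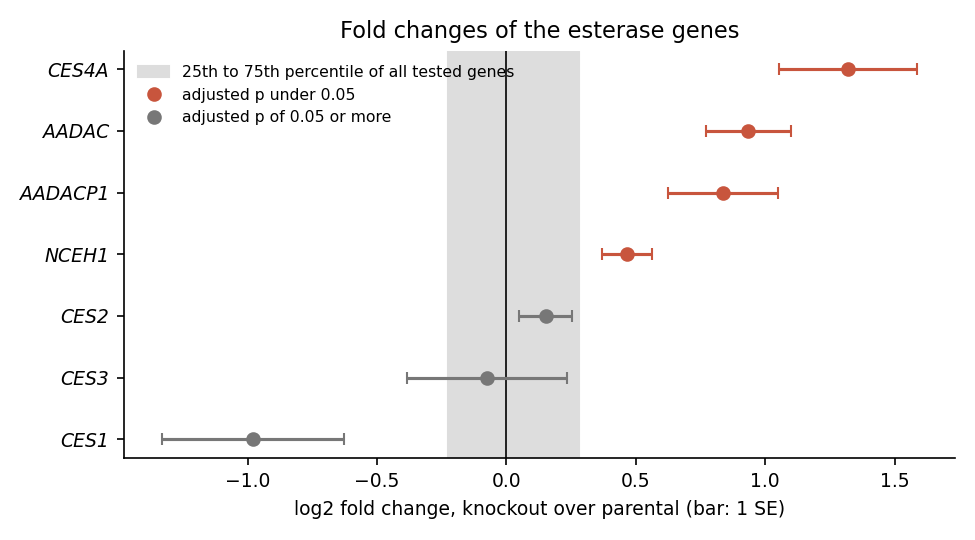
Fitted log2 fold changes of the 7 esterase genes, knockout over parental, with bars of 1 SE. Red points were called and grey points were not, and the grey band spans the 25th to 75th percentile of all 16219 tested genes (-0.23 to 0.28). CES4A lies highest at 1.32 and CES1 lowest at -0.98, with the widest bar.

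The 7 fitted values had a median of 0.47, against 0.00 over all tested genes, with 5 above 0 and 2 below. Levels can be compared between genes only per length of exon, taken here as all annotated exons of a gene merged. That length is well above the principal transcript for CES2 (5343 against 3927 bases) and CES4A (4340 against 2476), but hardly for AADAC (1668 against 1642). The order of genes with close levels therefore depends on the length used. Per kilobase of merged exon, CES1 led in both groups with 83.7 and 42.5 CPM per kilobase, and CES3 was lowest with 0.577 and 0.548. In parental tumours the others followed as CES2 at 6.40, NCEH1 at 5.56, AADAC at 4.05, AADACP1 at 3.68 and CES4A at 1.22 CPM per kilobase. In knockout tumours NCEH1 at 7.69, AADAC at 7.75, CES2 at 7.11 and AADACP1 at 6.58 CPM per kilobase came close to each other, and CES4A reached 3.03. In parental tumours the ranges over tumours overlapped between CES2 and NCEH1, between AADAC and AADACP1, and between CES4A and CES3, so the order within those pairs is not settled. In knockout tumours each of the 4 genes with close means overlapped in range with its neighbours in that order, and CES4A lay below all of them.

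The summed level of the 4 carboxylesterases followed CES1. It was 288 ± 105 CPM in parental tumours (range 158 to 386) and 179 ± 52.0 CPM in knockout tumours (range 113 to 224; SD, n = 4 each). CES1 made up 83.3% ± 7.70 of that sum in parental tumours and 67.8% ± 9.37 in knockout tumours (SD, n = 4 each), with overlapping ranges of 72.9% to 91.3% and 54.8% to 75.6%. Per kilobase, CES1 exceeded CES2 by 13.4 ± 6.57 times in parental and 5.96 ± 2.36 times in knockout tumours (SD, n = 4 each).

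**Figure D3:**
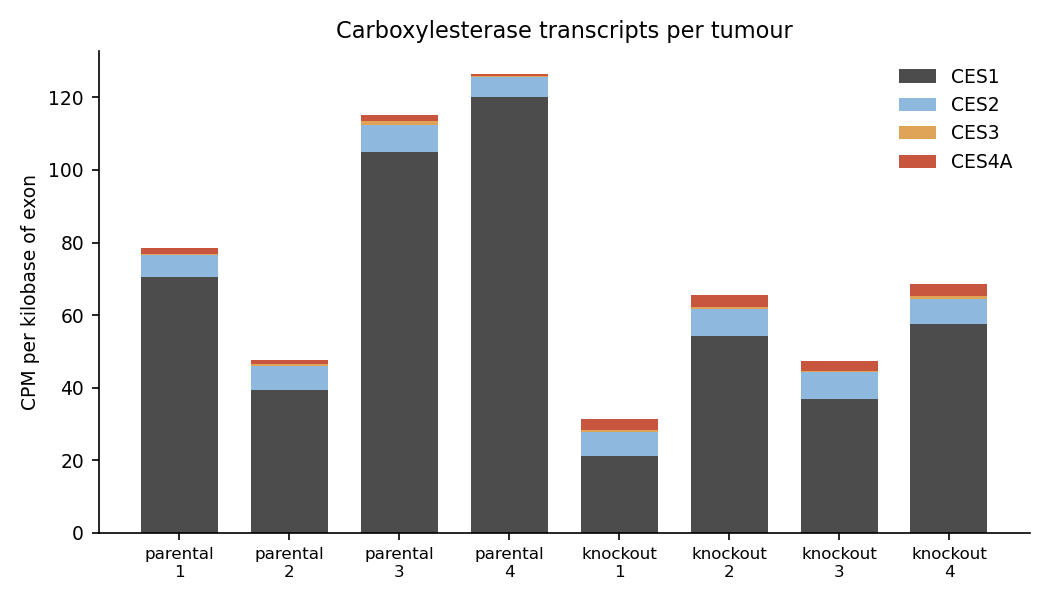
Levels of the 4 carboxylesterase genes in each tumour, in CPM per kilobase of exon, stacked from 0. CES1 (dark) makes up most of every bar and sets its height, CES2 (light blue) is nearly even across tumours, and CES4A (red) is thicker in the 4 knockout tumours.

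The nearest relatives of the 7 genes were mostly silent. AADACL2, AADACL3 and AADACL4 had no counts in any tumour, and CES5A had 1 count in all parental and 0 in all knockout tumours. Of 8 relatives listed, 2 entered the fit and both were called, against 27% of all tested genes. LIPE, hormone-sensitive lipase, fell from 5.85 ± 2.0 to 2.38 ± 0.639 CPM (SD, n = 4 each; log2 fold change -1.30, SE 0.275, edgeR adjusted p = 0.00477). AFMID, the kynurenine formamidase, rose from 24.8 ± 2.93 to 35.4 ± 2.86 CPM (SD, n = 4 each; log2 fold change 0.52, SE 0.107, edgeR adjusted p = 0.00412). Among the AADAC, NCEH1 and LIPE group of lipases, then, the first pair had higher fitted values in knockout tumours and LIPE was lower.

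Other enzymes that hydrolyse drug esters and epoxides moved in both directions. Of 18 such genes listed, 17 were tested, 5 rose, 3 fell and 9 were not called, with a median log2 fold change of 0.00. That is 47.1% called, against 27% of all tested genes. This list and the others were chosen with earlier results of these data known, so such shares are a description. PON2, an intracellular lactonase, rose from 212 ± 18.2 to 533 ± 7.17 CPM (SD, n = 4 each; log2 fold change 1.33, SE 0.0844, edgeR adjusted p = 1.47e-06). Its neighbour PON3 rose from 22.4 ± 2.96 to 46.9 ± 2.45 CPM (SD, n = 4 each; log2 fold change 1.06, SE 0.105, edgeR adjusted p = 2.9e-05). ABHD11 fell from 64.6 ± 8.24 to 34.1 ± 3.84 CPM (SD, n = 4 each; log2 fold change -0.92, SE 0.116, edgeR adjusted p = 0.000154). The epoxide hydrolases, named after their values were seen, parted: microsomal EPHX1 fell by 1.51 on the log2 scale (edgeR adjusted p = 0.000251), and soluble EPHX2 rose by 1.21 (edgeR adjusted p = 0.000393).

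Genes acting on stored neutral lipid likewise gave a mixed picture. Of 21 hydrolases and lipid droplet regulators, all tested, 4 rose, 6 fell and 11 were not called, with a median of -0.06. The share called was 47.6%, against 27% of all tested genes. DAGLA, a diacylglycerol lipase, fell by 1.28 (edgeR adjusted p = 0.000271) and the monoacylglycerol lipase ABHD2 by 0.68 (edgeR adjusted p = 0.000946) on the log2 scale. PLIN3, a lipid droplet coat protein, rose by 0.54 (edgeR adjusted p = 0.000537). The other PLIN genes listed, named after their values were seen, differed more and in both directions. PLIN2 had a log2 fold change of -2.29 (edgeR adjusted p = 0.00312), PLIN4 of 1.87 (edgeR adjusted p = 0.00832) and PLIN5 of 1.65 (edgeR adjusted p = 0.00207). The products of NCEH1 are handled by genes of cholesteryl ester formation and cholesterol export, of which 16 were listed and 15 tested. Of these, 4 rose, 2 fell and 9 were not called, with a median of 0.06 and 40% called, against the same 27%. SOAT1, which forms the cholesteryl ester that NCEH1 splits, rose from 41.7 to 63.1 CPM (log2 fold change 0.60, SE 0.109, edgeR adjusted p = 0.00189). NPC2, which carries cholesterol in the lysosome, rose by 1.05 (SE 0.125, edgeR adjusted p = 0.00011), and STARD4, a cytosolic sterol carrier, by 1.09 (SE 0.132, edgeR adjusted p = 0.000124). The 2 genes of that list that fell, named after their values were seen, were ABCA1 and NR1H3. Their log2 fold changes were -0.95 (edgeR adjusted p = 0.0136) and -0.53 (edgeR adjusted p = 0.012). SCARB1, a lipoprotein receptor and the most abundant gene of that list, had a value of -0.16 (edgeR adjusted p = 0.219).

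AADAC has been linked in liver to genes of triglyceride synthesis and lipoprotein assembly. Of 20 listed, 10 were tested, 2 rose and 8 were not called, with a median of -0.11, and 3 had no counts at all. The share called was 20%, against 27% of all tested genes. SURF4, a cargo receptor of the endoplasmic reticulum, rose by 0.30 (edgeR adjusted p = 0.014) and AGPAT2, an acyltransferase, by 0.37 (edgeR adjusted p = 0.015) on the log2 scale. Both calls were lost without parental replicate 1.

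The conjugating enzymes that follow esterases in drug metabolism had the lowest median, -1.17. Of 29 glucuronosyltransferases and sulfotransferases, 10 were tested, 2 rose, 5 fell and 3 were not called, which is 70% called against 27% of all tested genes. UGT1A6 fell from 50.8 to 9.04 CPM (log2 fold change -2.49, SE 0.111, edgeR adjusted p = 3.43e-07), although genes of the UGT1A locus share exons and their counts are uncertain. UGT8, which makes galactosylceramide, fell from 24.4 to 4.76 CPM (log2 fold change -2.36, SE 0.126, edgeR adjusted p = 6.6e-07). The cholesterol sulfotransferase SULT2B1 rose from 16.4 to 46.7 CPM (log2 fold change 1.51, SE 0.138, edgeR adjusted p = 1.76e-05).

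Among 26 liver-type and xenobiotic-sensing transcription factors, 19 were tested, 4 rose, 6 fell and 9 were not called, with a median of -0.05. The share called was 52.6%, against 27% of all tested genes. ONECUT2 rose from 31.5 to 78.5 CPM (log2 fold change 1.32, edgeR adjusted p = 2.54e-05). The dioxin receptor AHR fell by 0.86 (edgeR adjusted p = 0.000152) and the pioneer factor FOXA1 by 0.81 (edgeR adjusted p = 0.000434) on the log2 scale. CEBPB, the most abundant of the list, had a value of 0.11 (edgeR adjusted p = 0.50). HNF4A, a nuclear receptor of hepatocyte identity named here after its values were seen, had 0.931 to 1.38 CPM in parental tumours and 2.28 to 4.87 CPM in knockout tumours. It rose by 1.49 on the log2 scale (SE 0.281, edgeR adjusted p = 0.00234), on 18 to 31 reads in each parental tumour.

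**Figure D4:**
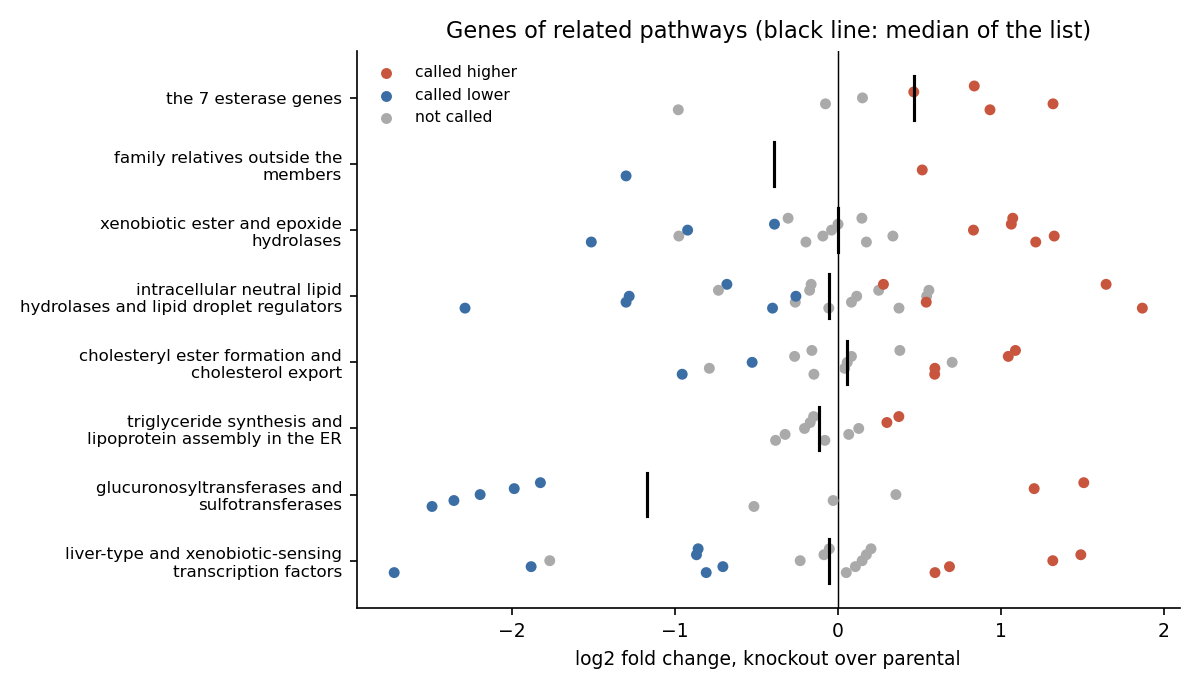
Log2 fold changes, knockout over parental, of the tested genes of 7 related lists and of the 7 esterase genes. Each point is a gene (red called higher, blue called lower, grey not called) and each black line the list median. Most lists spread to both sides of 0, and the conjugating enzymes have the lowest median, -1.17.

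The genes beside the 7 esterase genes on the chromosomes were called about as often as genes in general, and more often lower than higher. Of 41 tested neighbours, taken as the 5 nearest on either side of each gene, 2 rose and 10 fell, which is 29.3% called against 27% of all genes, and their median was -0.11. At the AADAC and AADACP1 locus 1 of 11 neighbours rose (AC068647.2) and 4 fell, and at the NCEH1 locus 1 of 10 rose and 2 fell. Of the 10 neighbours of CES1, 3 fell, and of the 10 around CES2, CES3 and CES4A, 1 fell. LPCAT2, the nearest tested gene on the lower-coordinate side of CES1, was among those called (log2 fold change -0.40, edgeR adjusted p = 0.0487), a call lost under 9 of 16 alternatives. GNAO1, on its other side, had a value of 0.04 (edgeR adjusted p = 0.940).

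**Figure D5:**
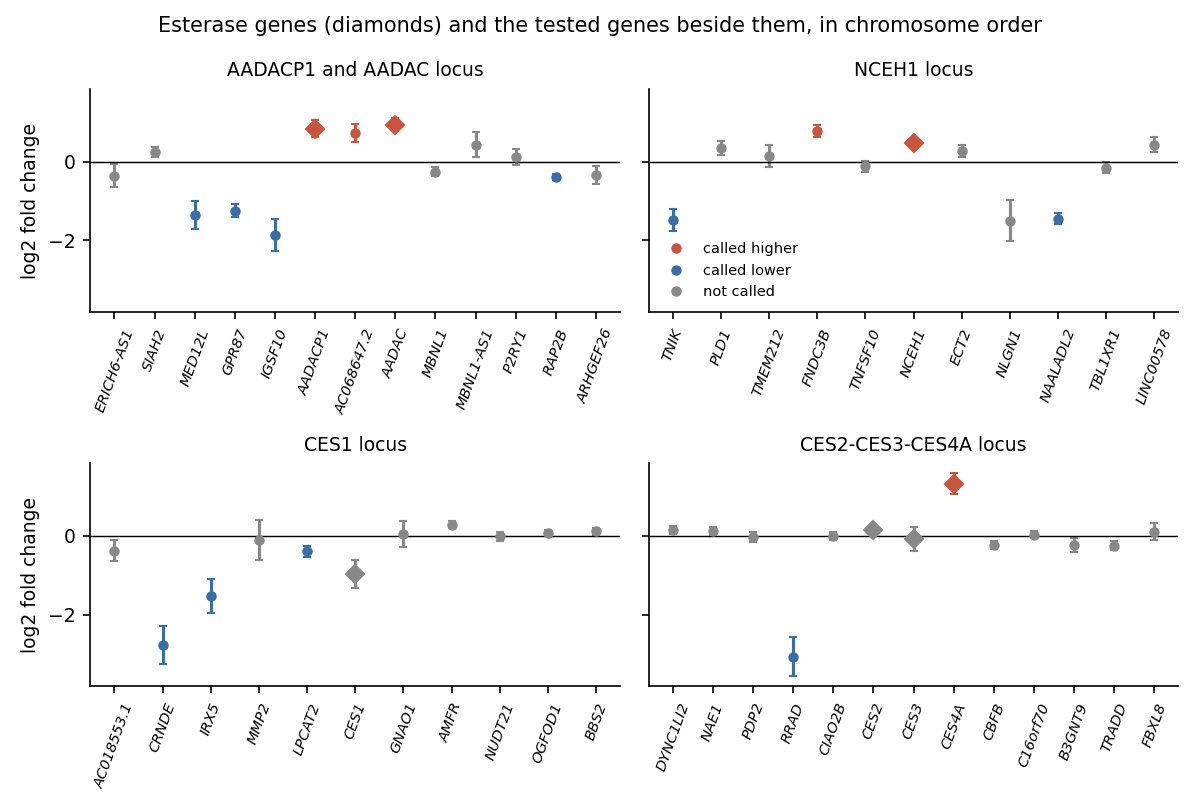
Log2 fold changes with bars of 1 SE for the esterase genes (diamonds) and the 5 tested genes on either side, in chromosome order at 4 loci. Red marks genes called higher, blue called lower and grey not called. AADACP1, AC068647.2 and AADAC form a run of 3 red points, and CES4A stands above its grey neighbours CES2 and CES3.

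CES4A alone among the 7 genes had a difference of at least 1 on the log2 scale, and the genes with the most similar profile over the 8 tumours were sought for it. Likeness was the root mean square difference between profiles of log2 CPM, each centred on its own mean, over 13048 genes. The closest was SEC31B (0.196), a homologue of a COPII coat protein, followed by the antisense transcript AL590560.1 (0.207) and ALS2CL (0.212), against a median of 0.854 over all genes compared. These 3 were picked as the closest to a gene itself chosen on its group difference, so the gap from the median is a description. They too were higher in knockout tumours, with fitted log2 fold changes of 1.04, 1.51 and 1.21, respectively. ALS2CL was far more abundant than CES4A in CPM, at 117 ± 33.8 and 272 ± 30.3 CPM (SD, n = 4 each), and SEC31B had 3.41 ± 1.33 and 7.0 ± 1.04 CPM (SD, n = 4 each).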

How the data were processed

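Total RNA from 8 xenograft tumours (4 parental, 4 SMARCA4 knockout, grouped by the genotype label) was sequenced. The deposited files, 1 per tumour, list whole-number read counts for gene symbols. Per the submitters' processing notes, the tools were TopHat2 2.1.1 and HTSeq 0.11.0 and the build was hg38. The annotation, the strand setting and any separation of mouse reads are not given in the sources used here, and the labels' protocols name a DNA library kit. Mouse reads that resemble human transcripts may therefore be counted. The 5 summary lines per file were left out. They held reads in no feature (6.08% to 10.4%), ambiguous reads (3.98% to 4.31%) and reads that were not unique (4.52% to 8.11%).

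Counts were filtered with filterByExpr (16219 genes kept), scaled with TMM and fitted with edgeR 4.0.16 (quasi-likelihood F-test, Benjamini-Hochberg over all genes tested) in R 4.3.3. A gene was called at an adjusted p under 0.05. CPM are TMM-scaled, and exon lengths and positions are from GENCODE 29 (GRCh38), which gave a position for 98% of tested genes. Alternatives were RLE, upper-quartile and total-count scaling, no filter, a stricter filter, DESeq2 1.42.0, limma-voom (limma 3.58.1), the replicate number as a block, and leaving out each tumour. The fit was tested on simulated data. Marker sums were compared by exact permutation tests (scipy 1.17.1).

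The esterase genes and the lists were chosen with earlier results of these data known. Named genes were all 7 esterase genes, the 3 genes with the smallest p among those called and the gene of highest mean in each list, the nearest tested neighbours, genes with overlapping exons, SMARCA4, and the 3 genes closest in profile to an esterase gene that differed by at least 1 on the log2 scale. Single marker genes, and relatives of the esterase genes with few or no counts, were named outside this rule. Where another gene is named, the text says so. Replicates differed by more than sampling noise (chi-square per degree of freedom of at least 8.21 over 28 pairs of libraries).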

Additional observations from a re-analysis of the deposited data

Results flagged for a closer look

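In each group of 4 tumours, the highest and lowest values were compared with the rest by Dixon's gap over range. Of 74 sets of values tested, 5 had a tumour standing apart, and chance alone gives about 5%. NCEH1 was 40.3 CPM in knockout replicate 3, against 35.3 to 36.2 CPM in the other knockout tumours. CES3 was 3.73 CPM in knockout replicate 4, against 2.29 to 2.43 CPM in the others. The same tumour had a skeletal muscle marker sum of 14.4 CPM, against 0.389 to 0.840 CPM in the other knockout tumours. In parental replicate 2, UGT1A6 was 59.3 CPM (47.3 to 49.0 CPM in the other parental tumours) and ONECUT2 was 39.6 CPM (28.4 to 29.1 CPM in the others).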

How the results depend on the processing

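The 7 esterase genes were chosen on this same difference, so their values under the alternatives describe the processing and are no sign of stability. AADAC, AADACP1, NCEH1 and CES4A were called under each of the 16 alternatives, and their fitted log2 fold changes ranged over those alternatives from 0.82 to 1.04, 0.66 to 1.01, 0.40 to 0.50 and 1.07 to 1.51, respectively. CES1 ranged from -1.22 (without parental replicate 2, when it was called) to -0.75, and the number of esterase genes called was 4 or 5. CES2 ranged from 0.08 to 0.22 and CES3 from -0.27 to 0.30, and neither was called under any alternative. In the list of triglyceride and lipoprotein genes, 1 gene was called without the low-count filter, against 2 with it, and 0 to 2 when 1 tumour was left out. The number of genes called over the whole table was 4385, ranging from 3501 to 4721 with 1 tumour left out, 4902 without the filter and 4816 with DESeq2. With upper-quartile scaling 54.1% of called genes were higher, against 47.9%. The replicate numbers did not pair the tumours, since deviations of same-numbered tumours correlated at -0.04, -0.02, -0.19 and 0.09. With the replicate block 3871 genes were called, and 4 esterase genes were still called. CES3 rested on 42 to 108 reads per tumour and AC068647.2 on 29 to 77, so their levels are the less precise ones. Reads shared between CES1 and CES1P1 and the unknown strand setting limit the levels of CES1 and CES4A.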
